A study of Mus musculus with 6 samples.

Results

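The 5 genes described here encode proteins at the front end of the photoreceptor light response: the cone opsins Opn1sw and Opn1mw, the receptor kinase Grk1 (rhodopsin kinase), the rod arrestin Sag and the cone arrestin Arr3. They were taken by symbol from the 49997 genes of each count table, and all 5 were present and passed the count filter. RNA of photoreceptors sorted on mCherry was sequenced in 3 libraries from mice given a guide RNA against Nr2e3 and 3 from mice given a control guide that is labelled non-targeting. All 6 mice were Rosa26-Cas9, with SpCas9 in every cell, and received a subretinal AAV in a 7m8 coat whose mCherry is driven by a human GRK1 promoter, so that sorting selects transduced cells in which that promoter is active. Each library pools 2 retinas of 1 mouse, about 100000 sorted cells, collected 6 months after injection. The series text gives injection at postnatal day 21 and the protocol gives an age of 4 weeks. The mice were male except guide replicates 2 and 3, and the Opn1mw and Arr3 genes lie on the X chromosome.

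An opsin bound to its chromophore is the receptor that a photon activates, and it then switches on the G protein transducin and, through it, phosphodiesterase. Activity ends when a receptor kinase phosphorylates the opsin and an arrestin caps it. Mouse cones carry a short-wavelength opsin (Opn1sw) and a middle-wavelength opsin (Opn1mw) in opposing dorsal and ventral gradients, many cones carrying both, whereas Grk1 serves rods and cones alike and Sag is abundant in rods and also present in cones. Nr2e3, a nuclear receptor found in rods, holds cone genes in check there, and the design asks how its disruption in mature photoreceptors alters their transcripts.

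The sequences upstream of 4 of the genes are shown because the 3 cone genes varied together across the libraries, and because Grk1 is the mouse counterpart of the gene whose promoter drives the sorting reporter. Each is the 250 bases before the transcript start that the RefSeq promoter table uses on GRCm38.p6, read 5′ to 3′ on the gene's strand, with exact matches of either strand to TAATCC (core of the homeodomain factors Crx and Otx2), AAGTCA (a half-site known for Nr2e3) or TAATCT in capitals. The stretches are chr6:29380514-29380763 for Opn1sw on the minus strand and, on the plus strand, chrX:74127216-74127465 for Opn1mw, chrX:100605247-100605496 for Arr3 and chr8:13404831-13405080 for Grk1. The start used for Arr3 (100605497) lies 17 bases inside the RefSeq gene span given further on, which opens with an earlier start.
Opn1sw: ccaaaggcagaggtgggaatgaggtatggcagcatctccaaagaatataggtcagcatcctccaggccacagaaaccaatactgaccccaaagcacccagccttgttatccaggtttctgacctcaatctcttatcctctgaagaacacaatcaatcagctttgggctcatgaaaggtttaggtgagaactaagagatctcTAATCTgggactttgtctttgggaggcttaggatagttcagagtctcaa
Opn1mw: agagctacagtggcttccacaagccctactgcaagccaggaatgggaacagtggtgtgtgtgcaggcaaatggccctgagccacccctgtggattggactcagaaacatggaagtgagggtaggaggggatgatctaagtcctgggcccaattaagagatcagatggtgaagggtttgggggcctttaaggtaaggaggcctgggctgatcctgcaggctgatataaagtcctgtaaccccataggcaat
Arr3: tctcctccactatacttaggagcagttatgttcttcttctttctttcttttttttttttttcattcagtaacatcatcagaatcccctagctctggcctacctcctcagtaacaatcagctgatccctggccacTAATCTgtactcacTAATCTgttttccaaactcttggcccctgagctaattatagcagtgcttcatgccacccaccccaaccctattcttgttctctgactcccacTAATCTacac
Grk1: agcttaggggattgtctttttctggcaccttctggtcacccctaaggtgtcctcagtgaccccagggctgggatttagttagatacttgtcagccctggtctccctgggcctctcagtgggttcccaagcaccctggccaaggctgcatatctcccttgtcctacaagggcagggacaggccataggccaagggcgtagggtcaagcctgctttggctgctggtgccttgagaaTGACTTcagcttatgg
TAATCC had 0 matches in these 4 windows and 1 in that of Sag, on the opposite strand 87 to 82 bases before a start at 87803680 that lies 5537 bases inside the Sag gene span, while 6.25% of 32817 promoter windows of the same length hold it. AAGTCA matched once, in Grk1, 16 to 11 bases upstream on the opposite strand (13.1% of all windows). TAATCT, added after the sequences were seen, matched 1 time in Opn1sw and 3 times in Arr3 (7.30% of all windows), and the Opn1mw window held 0 matches to the 3 motifs. A match is a run of letters and was not tested as a binding site.

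Depth was 24705561 to 34286248 gene counts per library. Levels are given as CPM, a gene's count over the library's total gene counts, times 1000000. The 9 other rod phototransduction genes summed to between 101082 and 106802 CPM in each library. With no library of unsorted retina to set beside it, this level does not test the sorting. Control replicate 3 stood apart from control replicates 1 and 2. It held 316 CPM of the 10 microglia markers against 30.9 and 35.0 CPM, with 10 of 10 markers above both, where 50.7% of all genes tested lay above both and 34.1% below both. Its 8 Muller glia markers summed to 1215 CPM against 684 and 691 CPM, although 6 of them lay below both other controls and 2 above. Its 7 amacrine markers summed to 144 CPM against 285 and 343 CPM. In guide libraries these ranges were 34.3 to 161 CPM for microglia, 770 to 1185 CPM for Muller glia and 57.1 to 284 CPM for amacrine markers, and no marker of the 3 lists was at 0 in all libraries. Mitochondrial genes made up 1.27% of counts in control replicate 3 and 1.31% in guide replicate 3, against 2.16 to 2.75% in the other 4 libraries.

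The cone opsins had lower means with the Nr2e3 guide, but the groups overlapped because control replicate 3 lay below every guide library. Opn1sw (chromosome 6, 29376671 to 29380513) was at 2190, 3084 and 417 CPM in control replicates 1 to 3 and at 1523, 855 and 714 CPM in guide replicates 1 to 3. The means were 1897 ± 1358 CPM in control and 1031 ± 432 CPM in guide libraries (SD, n = 3 each). edgeR gave a log2 fold change of -0.83 (SE 0.66, 95% interval -2.36 to 0.71, adjusted p = 0.995), an interval that runs from a fall to a rise. The gene ends tail to tail with Calu, whose RefSeq span ends at 29376675, and without strand information reads in the shared bases cannot be assigned. In GENCODE M21 the exons of Opn1sw share 397 bases with Calu, which lies on the opposite strand. Calu itself ran at 161, 198 and 90.0 CPM in controls and 128, 66.9 and 97.9 CPM in guide libraries, and its part in the Opn1sw counts was not tested.

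Opn1mw (X chromosome, 74127466 to 74150756) was at 841, 666 and 200 CPM in controls and 439, 363 and 241 CPM in guide libraries. All 3 guide libraries lay below control replicates 1 and 2 and above control replicate 3. The means were 569 ± 331 and 348 ± 100 CPM, with a log2 fold change of -0.66 (SE 0.52, interval -1.86 to 0.54, edgeR adjusted p = 0.995).

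The balance between the cone opsins did not differ between the groups beyond the spread between libraries. Per exonic kilobase, Opn1sw made up 61.4, 73.9 and 56.0% of cone opsin transcripts in the controls and 67.9, 59.0 and 64.5% in the guide libraries, means of 63.8 ± 9.16 and 63.8 ± 4.49%. The share depends on the length used. With RefSeq-matched transcript lengths it was 57.0, 70.2 and 51.5% in controls and 63.8, 54.5 and 60.2% in guide libraries. The ratio Opn1sw over Opn1mw differed by -0.017 on the log2 scale (exact permutation test, two-sided, p = 1.0, n = 3 each). With opposing gradients of the opsins across the retina, this share also depends on which part of the retina the sorted cells came from, which was not tested.

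Arr3, the cone arrestin (X chromosome, 100605480 to 100618493), had the smallest shift of the 3 cone genes. It was at 1219, 1406 and 424 CPM in controls and 980, 568 and 750 CPM in guide libraries, so that control replicate 3 was again lowest. The means were 1016 ± 521 and 766 ± 206 CPM (log2 fold change -0.36, SE 0.44, interval -1.38 to 0.66, edgeR adjusted p = 0.995). In all 3 cone genes guide replicate 1, the male, was the highest guide library, and sex and animal cannot be told apart there.

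**Figure D1:**
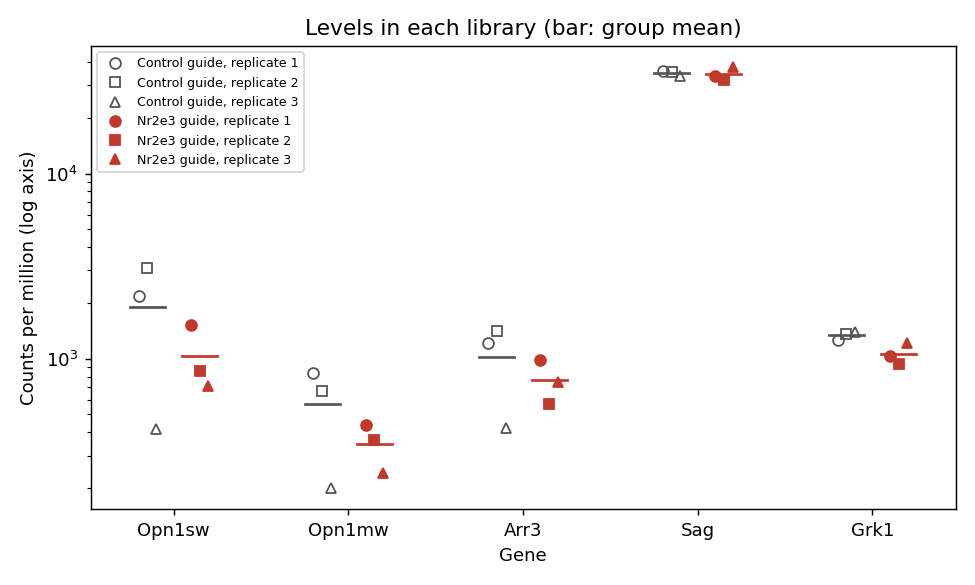
CPM of the 5 genes in each library on a log axis, with open symbols for the control guide, filled symbols for the Nr2e3 guide and a bar at each group mean. Control replicate 3 (open triangle) is the lowest library for Opn1sw, Opn1mw and Arr3, the Sag points lie close together, and the Grk1 guide libraries at 938 to 1217 CPM lie below all controls at 1270 to 1393 CPM.

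Sag, which caps phosphorylated rod pigment (chromosome 1, 87798143 to 87845158), was the fourth most abundant gene of the tables and the steadiest of the 5. It was at 35626, 35558 and 33566 CPM in controls and 33432, 31935 and 37623 CPM in guide libraries. The guide libraries span the control values on both sides, with means of 34917 ± 1170 and 34330 ± 2948 CPM. The log2 fold change was 0.043 (SE 0.14, interval -0.28 to 0.36, edgeR adjusted p = 0.996) and became -0.024 with library totals alone, so its sign depends on the scaling.

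Grk1 (chromosome 8, 13405081 to 13421951) was the only one of the 5 whose groups did not overlap. It was at 1270, 1362 and 1393 CPM in controls and 1035, 938 and 1217 CPM in guide libraries, and the groups also did not overlap after TMM scaling. The means were 1342 ± 64.0 and 1063 ± 142 CPM, a log2 fold change of -0.27 (SE 0.12, interval -0.55 to 0.0196, edgeR unadjusted p = 0.0638, adjusted p = 0.915). Of 17138 genes tested, 7.55% had all guide libraries below all controls and 4.63% had them above, and a count of 1 in 5 is too small to set apart from that background. Here control replicate 3 was the highest control, unlike in the cone genes.

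By edgeR's quasi-likelihood test, 0 of the 5 genes passed an adjusted p of 0.05 and 0 had an unadjusted p under 0.05, where 0.344% of all genes tested passed and 5.69% had an unadjusted p under 0.05. DESeq2 also called 0 of the 5 (0.742% of all genes). Without control replicate 3, 4 of the 5 had an unadjusted edgeR p under 0.05, against 8.6% of all genes, and 0 of the 5 passed after adjustment, against 0.5% of all genes. That library was the lowest control for the 3 cone genes, so leaving it out had to lower their fold changes. The cone genes also varied together, so the 4 are not separate results in this fit. In that fit the edgeR log2 fold changes were -1.32 for Opn1sw (SE 0.32, adjusted p = 0.259), -1.08 for Opn1mw (SE 0.28, adjusted p = 0.276) and -0.75 for Arr3 (SE 0.21, adjusted p = 0.310), each over 1.5 times its value with all libraries. Grk1 was at -0.29 (SE 0.12, adjusted p = 0.574) and Sag at -0.030 (SE 0.091, adjusted p = 0.970). Other controls moved the cone genes the other way: without control replicate 2 Opn1sw was at -0.32 and Arr3 at -0.078, and without control replicate 1 Opn1mw was at -0.22 and Arr3 at -0.17. With both replicate 3 libraries left out, a setting added after seeing the data, the values were -1.08 for Opn1sw, -0.85 for Opn1mw and -0.70 for Arr3. There 4 of the 5 had an unadjusted edgeR p under 0.05, against 14.3% of all genes, with 0 of 5 passing after adjustment. The 3 cone genes among these 4 are not separate results either. The part of the high microglia level of control replicate 3, and of the low mitochondrial share of both replicate 3 libraries, was not tested. Among males, where guide replicate 1 alone is set against the 3 controls and is assumed to vary like them, edgeR gave -0.28 for Opn1sw (SE 1.06), -0.34 for Opn1mw (SE 0.83) and -0.0077 for Arr3 (SE 0.70).

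**Figure D2:**
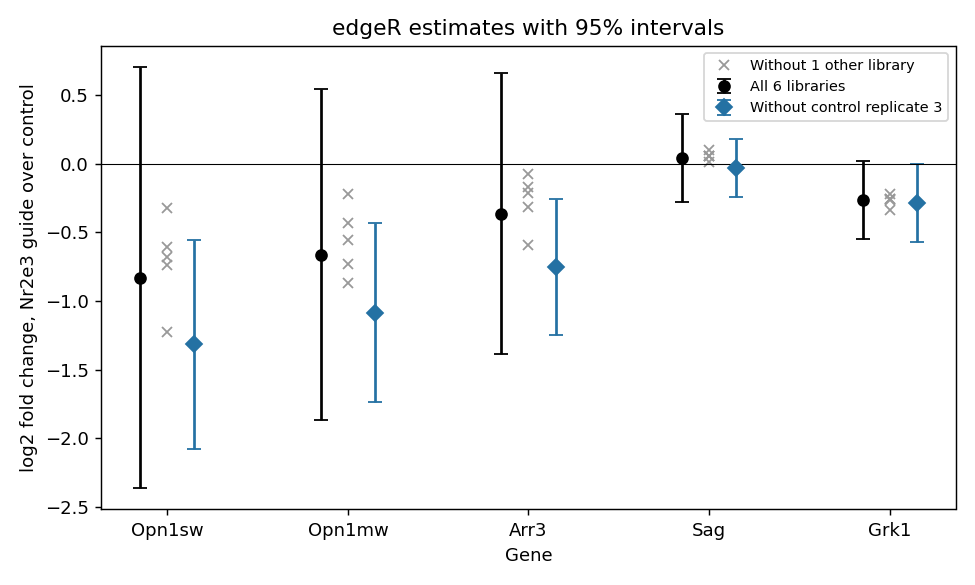
edgeR log2 fold changes of guide over control for the 5 genes with 95% intervals, from all 6 libraries (black), without control replicate 3 (blue) and without each other library in turn (grey crosses). Without control replicate 3 the intervals of Opn1sw, Opn1mw, Arr3 and, barely, Grk1 (upper end -0.0037) lie below 0, while with all libraries they cross 0. The intervals of Sag and Grk1 are narrow in both fits, and that of Sag crosses 0 in both.

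The 3 cone genes varied together across the 6 libraries. On log2(CPM + 1), Pearson's r was 0.94 between Opn1sw and Opn1mw, 0.96 between Opn1sw and Arr3 and 0.87 between Opn1mw and Arr3, against 0.23, 0.11 and 0.46 of these genes with Sag. These are descriptions over 6 libraries that include both groups and share their depth scaling. In control replicate 3 Opn1sw stood at 15.8%, Opn1mw at 26.5% and Arr3 at 32.3% of the mean of control replicates 1 and 2, while Sag stood at 94.3% and Grk1 at 106%. For bulk RNA of sorted cells, fewer cones and less RNA per cone cannot be told apart.

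Ratios within a library do not depend on its scaling, and 16 were computed: all 10 pairs of the 5 genes, and the 3 cone genes over Gnat2 and over Pde6c. The cone to rod arrestin ratio, Arr3 over Sag per exonic kilobase, was 0.129, 0.149 and 0.0478 in controls and 0.111, 0.0673 and 0.0754 in guide libraries. The guide values lie between the control values, and the log2 difference was -0.24 (exact permutation test, two-sided, p = 0.8, adjusted over the 16 ratios 0.985). Opn1sw over Sag was 0.214, 0.302 and 0.0433 against 0.159, 0.0933 and 0.0661 (log2 difference -0.51, exact p = 0.7). Opn1mw over Sag was 0.135, 0.107 and 0.0340 against 0.0749, 0.0648 and 0.0365 (log2 difference -0.49, exact p = 0.6). Neither cone opsin fell relative to the rod arrestin by more than the spread between libraries, and without control replicate 3 these differences were -1.36 and -1.09. With RefSeq-matched transcript lengths (1719 bases for Sag) in place of all annotated exons (8904 bases), ratios over Sag are lower. Control means were then 0.0364 for Arr3, 0.0382 for Opn1sw, 0.0226 for Opn1mw and 0.00891 for Grk1. Per exonic kilobase they were 0.109, 0.186, 0.0918 and 0.0390. The log2 differences between groups do not depend on the length.

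Over Grk1, which both photoreceptor types use, the log2 differences were -0.19 for Opn1sw, -0.17 for Opn1mw and 0.076 for Arr3 (exact p = 0.9, 0.8 and 1.0). Among the cone genes themselves they were -0.27 for Opn1sw over Arr3 and -0.25 for Opn1mw over Arr3 (exact p = 0.5 and 0.4), and leaving out 1 library gave -0.60 to -0.024 and -0.50 to -0.0026. Grk1 over Sag, the kinase relative to the rod arrestin, was 0.0361, 0.0388 and 0.0421 in controls and 0.0314, 0.0298 and 0.0328 in guide libraries. It was the only one of the 10 member pairs whose groups did not overlap, with a log2 difference of -0.32 that was -0.26 without control replicate 3. With Sag nearly level, this ratio restates the separation of Grk1 and is not a second result. Its exact permutation p was 0.1, the smallest that 3 against 3 libraries allow, and 0.229 adjusted over the 16 ratios. The 16 include the ratios over Gnat2 and Pde6c, chosen with their high guide levels known, and their equally small p lowers this adjusted value. The 0.1 is also the share of library arrangements that separate the groups, so 1 of 10 pairs is no more than that background.

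The cone genes parted from the cone transducin and phosphodiesterase. Gnat2, the alpha subunit of cone transducin, ran at 1086, 1027 and 201 CPM in controls and at 8147, 6636 and 7468 CPM in guide libraries, and control replicate 3 was low in it as in the opsins. Opn1sw over Gnat2 per exonic kilobase was 2.36, 3.52 and 2.43 in controls and 0.219, 0.151 and 0.112 in guide libraries. For Opn1mw this ratio was 1.49, 1.24 and 1.91 against 0.103, 0.105 and 0.0618. For Arr3 it was 1.43, 1.74 and 2.68 against 0.153, 0.109 and 0.128. The ratios were 17.6-fold, 17.4-fold and 14.6-fold lower in guide libraries, and each control library lay above each guide library. The differences on the log2 scale, -4.14, -4.12 and -3.87, were 10.1, 10.9 and 10.4 times their pooled SDs of 0.41, 0.38 and 0.37. Over Pde6c, the catalytic subunit of the cone phosphodiesterase, the 3 genes were 11.1-fold, 11.0-fold and 9.23-fold lower, again with no overlap. Each of these 6 ratios had an exact permutation p of 0.1, the smallest possible, and 0.229 adjusted over 16. Gnat2 and Pde6c were chosen with their high guide levels known, so these ratios describe the gap and are no independent support for it.

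**Figure D3:**
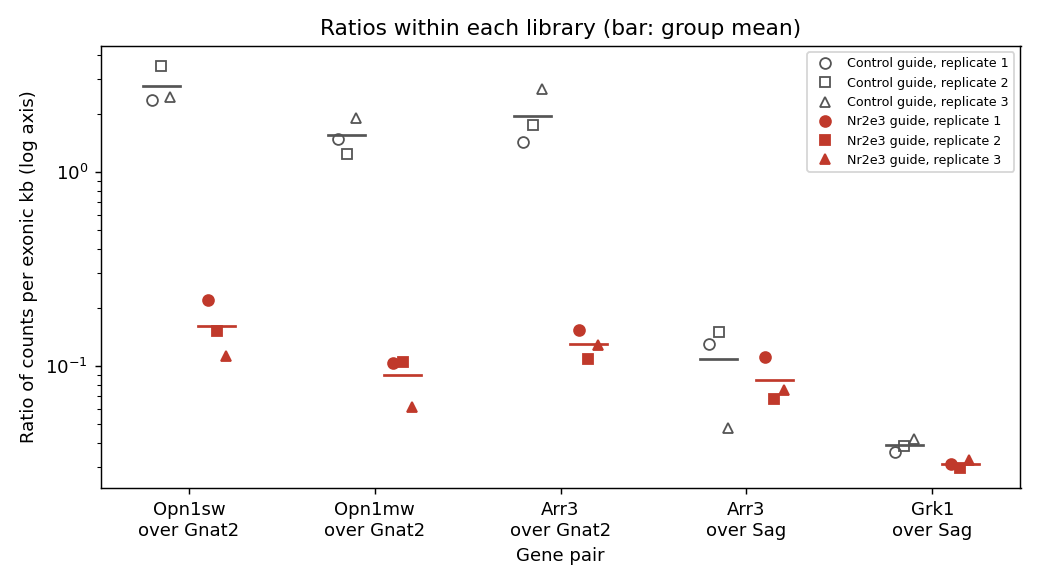
Ratios of counts per exonic kilobase within each library on a log axis, with open symbols for the control guide, filled symbols for the Nr2e3 guide and a bar at each group mean. The cone genes over Gnat2 separate the groups (14.6-fold to 17.6-fold lower in guide libraries), and control replicate 3 is the highest control for Opn1mw and Arr3, whereas Arr3 over Sag overlaps and Grk1 over Sag differs by a small, separate step.

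Of the 8 other cone phototransduction genes 0 passed the edgeR test, 3 had an unadjusted p under 0.05 (5.69% of all genes), and the list median was -0.10 against -0.014 over all genes. This depended on the setting for Gnat2 (log2 fold change 3.30, edgeR adjusted p = 0.121) and Pde6c (2.79, adjusted p = 0.0898). Both passed with DESeq2 (adjusted p = 1.71e-09 and 4.70e-09), without a count filter and without control replicate 3. They did not pass with the replicate block or with sex as a term. Gngt2, the cone transducin gamma subunit, stood at 0.61 of its control mean, the channel subunits Cnga3 and Cngb3 at 0.55 and 0.56, and the exchanger Slc24a2 at 0.60, beside 0.54 for Opn1sw, 0.61 for Opn1mw and 0.75 for Arr3. Gnat2, Pde6c and the inhibitory subunit Pde6h stood at 9.61, 6.69 and 3.79 times theirs. Gnb3, the cone transducin beta subunit, stood at 1.26 times, with 2675 CPM in control replicate 3 against 901 and 1060 CPM in the other controls. Control replicate 3 was the lowest control for 7 of these 8 genes, against 34.1% of all genes tested, and the highest for Gnb3.

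**Figure D4:**
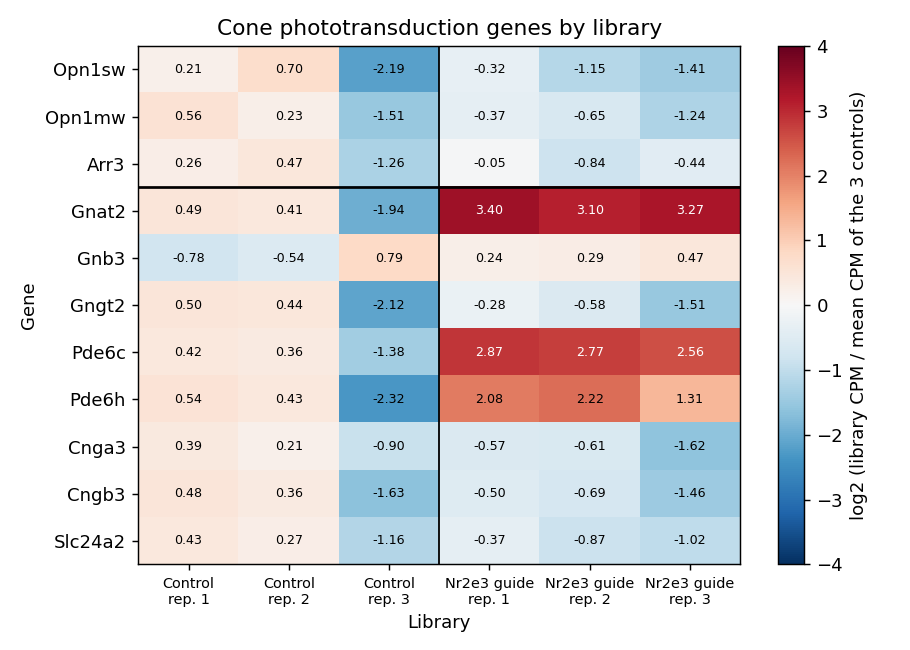
Each cell gives the log2 ratio of a library's CPM to the mean of the 3 controls for a cone phototransduction gene, with blue below and red above that mean. Opn1sw, Opn1mw and Arr3 (top) share the low values of control replicate 3 and of the guide libraries with Gngt2, Cnga3, Cngb3 and Slc24a2, while Gnat2, Pde6c and Pde6h are red in the guide libraries.

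Among 9 other rod phototransduction genes 0 passed and 0 had an unadjusted p under 0.05 (edgeR, list median 0.14), where 5.69% of all genes had one here and in the lists that follow. Gnat1, the rod transducin alpha subunit, was at 35049 ± 2188 CPM in control and 31137 ± 3372 CPM in guide libraries. Of 9 genes of shutoff and calcium feedback 0 passed and 4 had an unadjusted p under 0.05 (median 0.24). Guca1a had the largest shift of the 4 (edgeR log2 fold change 1.04, SE 0.23, unadjusted p = 0.00223, adjusted p = 0.226). The 4 also include Rcvrn, the calcium sensor that restrains Grk1, at 5434 ± 418 against 7172 ± 1095 CPM. Its edgeR log2 fold change was 0.48 (SE 0.19, adjusted p = 0.823). Each guide library lay above each control, as for 4.63% of all genes tested. Pdc, phosducin, which binds transducin beta and gamma subunits, was at 3946 ± 333 CPM in control and 5330 ± 694 CPM in guide libraries. These did not overlap, again as for 4.63% of all genes tested (edgeR log2 fold change 0.51 with SE 0.18, unadjusted p = 0.0247, adjusted p = 0.716). Of 7 other arrestins and receptor kinases 0 passed and 0 had an unadjusted p under 0.05 (median -0.039). Grk2, a widely expressed receptor kinase, was at 10.6 ± 1.29 against 9.78 ± 2.13 CPM and Grk6 at 6.10 ± 3.65 against 6.45 ± 3.14 CPM. Of 12 regulators of opsin genes 0 passed and 3 had an unadjusted p under 0.05 (median -0.12). Crx, a homeodomain activator of photoreceptor genes, was at 1574 ± 24.7 against 1464 ± 42.3 CPM. After TMM scaling its edgeR log2 fold change was -0.032 (SE 0.12, unadjusted p = 0.792), so it was not among the 3. Nr2e3, the guide's target, was at 1695, 1608 and 1645 CPM in controls and 2024, 1773 and 2303 CPM in guide libraries. It was among the 3, with a higher level in guide libraries (edgeR log2 fold change 0.37, SE 0.13, unadjusted p = 0.0247, adjusted p = 0.716). Its groups did not overlap, where 4.63% of all genes tested had all guide libraries above all controls. Small insertions or deletions at the cut site are not visible in counts over a whole gene, and the labels are not tested by this level.

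Per exonic kilobase Sag was the highest of the 5 in every library, at 3921 ± 131 CPM per kilobase in controls and 3856 ± 331 in guide libraries. Below it in controls came Opn1sw (742 ± 531), Arr3 (432 ± 221) and Opn1mw (364 ± 212), whose ranges over libraries overlap, and Grk1 (153 ± 7.29), which lay above Opn1mw in control replicate 3. In guide libraries the order was the same, with 403 ± 169, 325 ± 87.6, 223 ± 64.1 and 121 ± 16.1. Within libraries, Opn1sw lay above Opn1mw in 6 of 6, Arr3 above Opn1mw in 5 of 6 and Opn1sw above Arr3 in 4 of 6. The annotated exons of Sag cover 8904 bases, whereas its RefSeq-matched transcript has 1719. With such transcript lengths the order in controls did not change, at 20312 ± 681 for Sag, 787 ± 563 for Opn1sw, 748 ± 383 for Arr3, 464 ± 270 for Opn1mw and 181 ± 8.62 for Grk1. In guide libraries Arr3 (564 ± 152) then lay above Opn1sw (428 ± 179).

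The genes closest to each member across the 6 libraries were ranked by Pearson's r on log2(CPM + 1) over 8793 other genes of at least 5 CPM. For Opn1mw the nearest was Cngb3, the cone channel subunit (r = 0.99), followed by Osgep, Malat1, Mgst3 and Rpl21-ps15. For Opn1sw they included Kcne2, Kcnab1, Myl12b and Rbm8a (r = 0.98 to 0.99) and for Arr3 Olfm1, Gtpbp4, Ddhd2, U2af1 and Pcp4 (r = 0.98 to 0.99). Sag was nearest to Abhd5, Tspan10 and Alg9 (each r = 0.99), and Grk1 to Nmt1, Mpi and Anxa6 (r = 0.992 to 0.996). These values describe the 6 libraries alone. They are the highest among 8793 genes, and even the steady Sag reached 0.99. By themselves they do not mark genes as regulated together.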

How the data were processed

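Sorted photoreceptor RNA was amplified with a SMARTer Ultra Low kit, per the labels' protocols. For each library the authors deposited a table of raw counts of reads by gene symbol. The tools named are STAR 2.7.3a, HTSeq 0.12.4, cutadapt and DESeq2 1.42.0, with build GRCm38, per the submitters' processing notes. Which annotation and strand setting were used is not given in the sources used here. Entries naming no gene (21.6 to 23.7% of counts) were left out. Coordinates and promoters come from RefSeq (GRCm38.p6, 5 of 5 genes matched) and exon lengths from GENCODE M21.

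Groups were compared over all genes with edgeR 4.0.16 in R 4.3.3 (TMM factors, filterByExpr with min.count 10, glmQLFit and glmQLFTest on group, Benjamini-Hochberg adjusted p under 0.05). SE is the fold change over the square root of F. Ratios were compared with exact permutation tests over libraries (scipy 1.17.1). DESeq2 1.42.0, other scalings and filters, sex, a replicate block and left-out libraries were alternatives. The edgeR script was tested on simulated data. A chi-square comparison found no libraries of 1 group that agree within sampling noise. Each library is a separate mouse. Reads carry no molecular identifiers.

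The members, pathway lists and markers were chosen with earlier results of these data known. Besides the members, genes named are, in each pathway list, up to 4 called genes or else the 2 of highest level, and the genes of highest correlation, leaving out predicted and Y-linked genes; 1 gene of high correlation is not reported here. Gngt2, Cnga3, Cngb3, Slc24a2, Pde6h, Pde6c, Guca1a and Calu were named after their values were seen.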

Additional observations from a re-analysis of the deposited data

How the results depend on the processing

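In all 16 alternative fits 0 of the 5 members passed an adjusted p of 0.05, and Opn1sw, Opn1mw and Grk1 kept a negative log2 fold change. Leaving out 1 library at a time gave -1.32 to -0.32 for Opn1sw, -1.08 to -0.22 for Opn1mw, -0.75 to -0.078 for Arr3, -0.34 to -0.22 for Grk1 and -0.030 to 0.10 for Sag. Sag turned to -0.024 with library totals alone and to -0.054 with both replicate 3 libraries left out, a setting added after seeing the data, and Arr3 turned to 0.0061 with sex as a term. The cause was not tested. The replicate numbers name different animals, and deviations of same-numbered libraries correlated weakly, at 0.14, -0.14 and 0.044. Both replicate 3 libraries had a low mitochondrial share (1.27 and 1.31%) and were the lowest of their groups for Opn1sw and Opn1mw. Whether they share more than a number was not tested. With the replicate block Opn1sw was at -0.46, Opn1mw at -0.45 and Arr3 at -0.20, and 31 genes were called higher and 1 lower.

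Over all genes 54 were called higher and 5 lower. DESeq2 called 182 and 57, no count filter 130 and 25, sex as a term 6 and 0, males only 0 and 0 (1752 at unadjusted p under 0.05 by edgeR), library totals alone 39 and 3, and single left-out libraries 14 to 80 and 0 to 9. The 80 came without control replicate 3. Counts of the members ran from 6856 to 1245263 per library, so counting error is small beside the spread between libraries.

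Of the ratios, leaving out 1 library gave log2 differences from -1.36 to 0.045 for Opn1sw over Sag, -0.75 to 0.069 for Arr3 over Sag, -1.10 to 0.36 for Opn1sw over Grk1, -0.84 to 0.27 for Opn1mw over Grk1, -0.49 to 0.39 for Arr3 over Grk1 and -0.26 to 0.31 for Opn1sw over Opn1mw, each with a change of sign. The 6 ratios over Gnat2 and Pde6c and Grk1 over Sag stayed negative in all 9 alternatives. Their groups do not overlap, so leaving out or pairing libraries could not change the sign, and this adds no support. Among males Opn1sw over Gnat2 was at -3.64 and Opn1mw over Pde6c at -3.21, smaller than with all libraries.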

Other observations

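Of 5 opsins outside rod and cone phototransduction, 3 passed the count filter and 0 passed the edgeR test. Opn4, the melanopsin of light-sensitive ganglion cells, was at 5.58, 4.75 and 9.71 CPM in controls and 2.82, 1.58 and 2.05 CPM in guide libraries (log2 fold change -1.54, SE 0.38, edgeR unadjusted p = 0.00417, adjusted p = 0.312). Its groups did not overlap, where 7.55% of all genes tested had all guide libraries below all controls. Rrh, an opsin of the pigment epithelium, was at 3.03, 2.30 and 1.25 CPM in controls and 0.367, 0.607 and 1.90 CPM in guide libraries, which overlap. The 8 pigment epithelium markers summed to 9.01 to 18.5 CPM in controls and 2.95 to 6.49 CPM in guide libraries, and 7 ganglion cell markers to 20.5 to 76.8 and 19.4 to 58.9 CPM. The part of these cell types in the Opn4 and Rrh values was not tested.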
